A study of Arabidopsis thaliana with 8 samples.

Results

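Signals of 4 genes grouped here under carbon and nitrogen recycling, *ICL*, *GAT1_2.1*, *PPDK*, and *FDH*, were described in *Arabidopsis thaliana* seedlings in constant red light. They were chosen on earlier results of these same arrays, with their signals in view. Their levels and the differences between genotypes are therefore given as a description with no test. Together they have 5 probe sets on the array, and for each gene the brightest was used, 4 of the 17660 probe sets tested in all. By name they are 4 of the 9966 genes that could be named and had a tested probe set. Whole seedlings of the *fhy3-4* mutant and of wild type No-0 were sampled after 24, 32, 40, or 48 h in red light, about 100 seedlings per sample, with 1 Affymetrix ATH1 array for each genotype and time. *FHY3* encodes a light-signalling transcription factor of the phytochrome pathway, and *fhy3-4*, a single allele, is its loss-of-function mutant. All seedlings, mutant and wild type, were grown at 21 C on medium with 2% sucrose and entrained for 7 days in 12 h light and 12 h dark before red light at 660 nm. The times 24 and 48 h are subjective dawn on consecutive days, 32 h is the subjective afternoon, and 40 h the subjective night.

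Seedlings that use fat, protein, or amino acids as a source of carbon run a set of linked pathways. Fatty acid breakdown in peroxisomes yields acetyl units, which the glyoxylate cycle turns into organic acids, and isocitrate lyase, encoded by *ICL*, is one of the enzymes found only in this cycle and is best known from the early growth of oilseed seedlings. Pyruvate orthophosphate dikinase, encoded by *PPDK*, makes phosphoenolpyruvate from pyruvate and serves both sugar synthesis and the movement of nitrogen out of ageing leaves. *GAT1_2.1* encodes a glutamine amidotransferase-like protein, and *FDH* the mitochondrial formate dehydrogenase, which oxidises formate to carbon dioxide.

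The values are linear array signals as deposited. No genotype and time has a second array, so the spread between biological replicates is not known. The arrays at 24 and 48 h share a circadian time a day apart, and the gap between them is the only measure of spread within a genotype. Array mean signals lay between 402.4 and 438.8 in *fhy3-4*, against 408.6 to 417.5 in wild type, and the array of *fhy3-4* at 40 h had the highest. By the median over probe sets of the distance from the mean of its genotype's other 3 arrays, that array also stood farthest out in *fhy3-4*, at 0.239 on the log2 scale, where the others had 0.134 to 0.159. In wild type the 32 h array stood farthest out, at 0.261, where the others had 0.167 to 0.193. Of 8 green tissue markers 2 could be named. Their summed signal, of the Rubisco activase gene *RCA* and the light-harvesting gene *LHCB4.1*, lay between 18509.9 and 19568.2 in *fhy3-4* and between 18211.3 and 20336.2 in wild type. Of 8 root markers 1 could be named, *PYK10*, a beta-glucosidase gene, with signals of 6738.9 to 9736.6 in *fhy3-4*, highest at 40 h, and of 5666.1 to 7281.5 in wild type, highest at 48 h. None of 10 seed and embryo markers could be named. In whole seedlings, fewer cells of a type and less RNA per cell cannot be told apart.

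*ICL* had far more signal in *fhy3-4* than in wild type through the subjective afternoon and night. In *fhy3-4* the signal of its probe set, 257947_at (locus AT3G21720), was 473 at 24 h, 3015.0 at 32 h, 2162.3 at 40 h, and then 1017.5 at 48 h. In wild type it was 311 at 24 h, 74.0 at 32 h, 72.2 at 40 h, and then 115 at 48 h. The genotypes did not overlap, although the margin between the lowest *fhy3-4* array and the highest wild type array, both at 24 h, was small, 1.52-fold. Every *fhy3-4* array lay above every wild type array for 5.78% of all tested probe sets, so the order alone is shared with 1020 probe sets, and nothing is read from it here since the gene was chosen on these signals. For 0 of the 4 genes were all *fhy3-4* arrays below all of wild type, where 5.23% of tested probe sets were.

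The size of the *ICL* difference varied widely between the sampled times. The ratio of *fhy3-4* to wild type was 1.52 at 24 h, 40.8 at 32 h, 30.0 at 40 h, and then 8.87 at 48 h. The ratios at 24 and 48 h, the same circadian time, were far apart, so time of day, hours in red light, and the spread between arrays cannot be told apart in this course. At 32 h its log2 difference of 5.35 ranked first among the 17660 tested probe sets, and at 40 h its difference of 4.91 ranked at place 4. Averaged over the sampled phases with 24 and 48 h as 1 phase, the log2 difference in mean level was 4.04 (limma SE 0.48), which ranked at place 2. It was 3.39 without the 32 h arrays and 3.61 without the 40 h arrays. The SE does not rest on the spread of *ICL* between 24 and 48 h alone, an SD of 0.91 on the log2 scale. Limma draws it towards the spread of all tested probe sets, of which the median SD was 0.13.

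The course of *ICL* from 24 h on ran in opposite directions in the 2 genotypes. In *fhy3-4* the 3 later arrays were all above that of 24 h, with the highest at 32 h, whereas in wild type the 3 later arrays were all below that of 24 h. *ICL* was also the member with the widest gap between the 2 dawn arrays. The signal at 48 h was 2.15 times that at 24 h in *fhy3-4*, and 0.368 times that at 24 h in wild type. A gap at least as wide, in either direction, was found for 1.08% of tested probe sets in *fhy3-4* and 0.929% in wild type. Set against this spread, no 2 neighbours in the order of the 8 levels of *ICL* differed by more than the larger dawn gap, 1.44 on the log2 scale, while the afternoon and night levels of the 2 genotypes lay more than 4 log2 units apart.

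**Figure D1:**
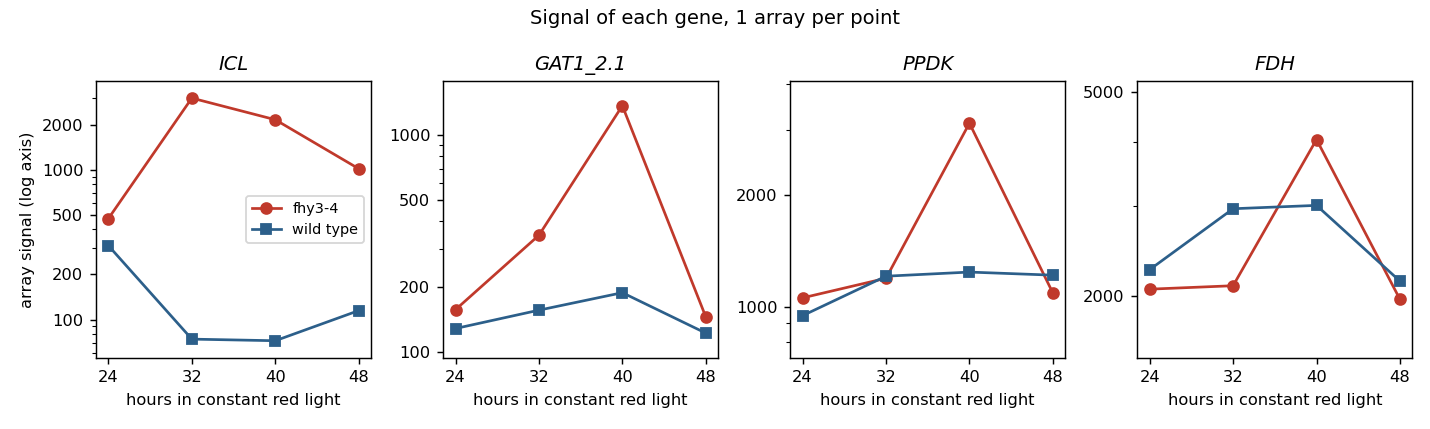
Array signal (log axis) of *ICL*, *GAT1_2.1*, *PPDK*, and *FDH* against hours in constant red light, with *fhy3-4* as red circles and wild type as blue squares, 1 array per point and no error bars. *ICL* is higher in *fhy3-4* at every time, although at 24 h by less than its gap between 24 and 48 h in either genotype. *GAT1_2.1* differs mainly at 32 and 40 h, and *PPDK* and *FDH* reach their highest signals, 3131.0 and 4043.2, on the *fhy3-4* array at 40 h.

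*GAT1_2.1* was close to its wild type level at dawn in *fhy3-4* and was several fold higher in the night. In *fhy3-4* the signal of probe set 260741_at (locus AT1G15040) was 157 at 24 h, 345.5 at 32 h, 1368.8 at 40 h, and then 145 at 48 h. In wild type it was 128 at 24 h, 156 at 32 h, 188 at 40 h, and then 122 at 48 h. Both genotypes had their highest signal at 40 h, but that of *fhy3-4* was 9.07 times its own mean of 24 and 48 h, against 1.499 times in wild type. The ratio of *fhy3-4* to wild type was 1.22 at 24 h, 2.22 at 32 h, 7.29 at 40 h, and then 1.19 at 48 h, so the *fhy3-4* array was above that of wild type at 4 of 4 times, while the genotypes as wholes overlapped.

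The arrays at 24 and 48 h agreed closely for *GAT1_2.1*. The signal at 48 h was 0.926 times that at 24 h in *fhy3-4* and 0.952 times in wild type. In the order of its 8 levels, the *fhy3-4* arrays at 40 and 32 h came first followed by the wild type array at 40 h, each apart from the next by more than the larger dawn gap of 0.110 on the log2 scale. Of the 5 levels below them, 4 neighbouring pairs remained, of which only *fhy3-4* at 48 h and wild type at 24 h differed by more than that gap. The log2 difference in mean level was 1.43 (limma SE 0.07) and was 0.71 without the 40 h arrays. At 40 h the log2 difference of 2.87 (limma SE 0.14) ranked at place 51 of 17660.

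A second probe set of *GAT1_2.1*, 260743_at, is far dimmer and was not used to describe the gene. In *fhy3-4* its signal was 2.32 at 24 h, 8.86 at 32 h, 66.5 at 40 h, and then 13.7 at 48 h, and in wild type it lay between 7.22 and 9.98. Only the *fhy3-4* array at 40 h was above 20.7, the level that was set as a floor for low signals in the fits. Its ratio of *fhy3-4* to wild type at 40 h, 6.77, was close to the 7.29 of the brighter probe set, and both come from the same pair of arrays.

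*PPDK* differed between the genotypes at 40 h and hardly at the other times. In *fhy3-4* the signal of probe set 245528_at (locus AT4G15530) was 1055.6 at 24 h, 1192.6 at 32 h, 3131.0 at 40 h, and then 1088.4 at 48 h. In wild type it was 945 at 24 h, 1208.0 at 32 h, 1239.3 at 40 h, and then 1215.8 at 48 h. The genotypes overlapped except for the *fhy3-4* array at 40 h, which stood alone above the other 7. The ratio of *fhy3-4* to wild type was 1.12 at 24 h, 0.987 at 32 h, 2.53 at 40 h, and then 0.895 at 48 h.

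The night level of *PPDK* in *fhy3-4* was 2.92 times its own mean of 24 and 48 h, against 1.15 times in wild type. In the order of its 8 levels this array was apart from the next by 1.34 on the log2 scale, and no other neighbours differed by more than the larger dawn gap, 0.363, which was that of wild type. The log2 difference in mean level was 0.44 (limma SE 0.12) and −0.0092 without the 40 h arrays, so it rests on those arrays.

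*FDH* had the smallest log2 difference of the 4 genes at 40 h and in mean level, and the direction of its difference changed between the sampled times. In *fhy3-4* the signal of probe set 246595_at (locus AT5G14780) was 2066.1 at 24 h, 2098.4 at 32 h, 4043.2 at 40 h, and then 1974.3 at 48 h. In wild type it was 2255.4 at 24 h, 2964.0 at 32 h, 3008.8 at 40 h, and then 2142.2 at 48 h. Here *fhy3-4* was below wild type at 24, 32, and 48 h and above it at 40 h, with ratios of *fhy3-4* to wild type of 0.916, 0.708, 1.34, and 0.922 in the order of the times. The wild type level was high in both the afternoon and the night, whereas in *fhy3-4* the afternoon level stayed within 1.04-fold of the dawn mean and that at 40 h was 2.00 times it.

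Averaged over phases, these opposite differences of *FDH* nearly cancelled, with a log2 difference in mean level of −0.06 (limma SE 0.07). It was −0.31 without the 40 h arrays and 0.15 without the 32 h arrays. The dawn arrays of *FDH* agreed within 0.0743 on the log2 scale. Against that gap, *fhy3-4* at 40 h lay above wild type at 40 h by 0.426, wild type at 40 and 32 h did not differ by more than the gap, and wild type at 32 h lay above all dawn arrays and above *fhy3-4* at 32 h.

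**Figure D2:**
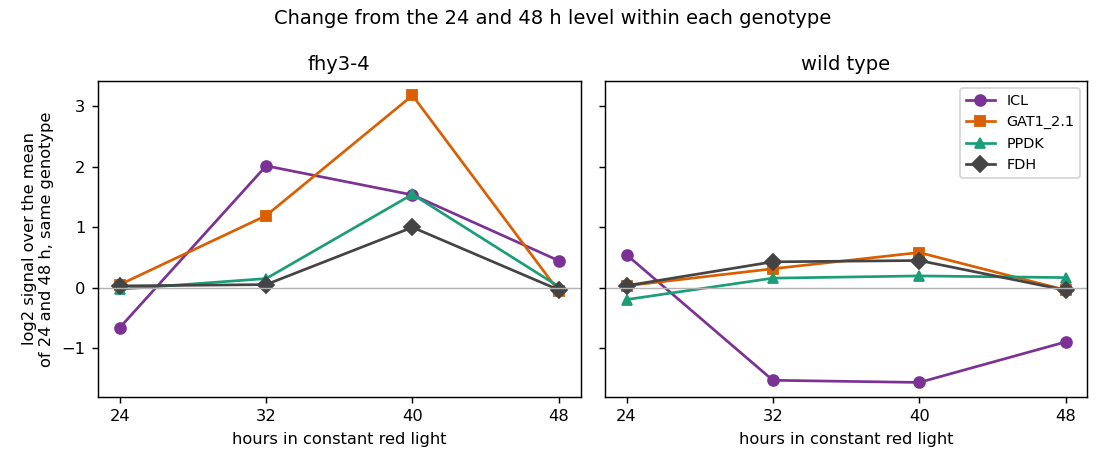
Log2 signal of each gene over its mean of 24 and 48 h in the same genotype, against hours in constant red light, for *fhy3-4* (left) and wild type (right), 1 array per point. At 40 h all 4 genes lie at least 1 log2 unit above that mean in *fhy3-4*, up to 3.18 for *GAT1_2.1*, while in wild type none exceeds 0.58 and *ICL* lies at −1.56.

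The 4 genes shared a high night level in *fhy3-4*, and 3 of them shared its timing. At 40 h the *fhy3-4* signal was at least 2-fold the mean of 24 and 48 h for 4 of 4 genes, where 3.62% of all tested probe sets were, although *FDH*, at 2.00 times, lay at the limit. In wild type 0 of 4 were, against 1.08% of tested probe sets. The *fhy3-4* signal was at least 2-fold that of wild type for 0 of 4 genes at 24 h, 2 of 4 at 32 h, 3 of 4 at 40 h, and 1 of 4, *ICL*, at 48 h. Of all tested probe sets 1.83% were at 24 h, 7.78% at 32 h, 6.69% at 40 h, with 1.89% at 48 h. Within each genotype *GAT1_2.1*, *PPDK*, and *FDH* had their highest signal at 40 h, 3 of 4 in *fhy3-4* and 3 of 4 in wild type, where 37.9% of tested probe sets did so in *fhy3-4* and 21.8% in wild type. In wild type the 40 h level of *PPDK* and of *FDH* was within the dawn gap of the next level. The same 3 genes had their highest signal of all 8 arrays on the *fhy3-4* array at 40 h, as did 21.4% of tested probe sets, whereas *ICL* was highest at 32 h. These shares are a background only, because the genes were picked with this pattern in view.

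With sine-wave criteria adapted from the study's methods, 3 of 4 genes were rhythmic in *fhy3-4* and 1 of 4 in wild type. The criteria ask for a correlation with a 24 h sine wave at a two-sided p under 0.01, and for a change between the levels nearest peak and trough no smaller than that of a sine wave whose peak is 1.5-fold its trough. The methods' other way to pass, by a large absolute change in signal, was not applied, and the two-sided form of the p was chosen here, so these calls need not be those of the study. The criteria were met by 10.7% of tested probe sets in *fhy3-4* and by 12.5% in wild type. The arrays at 24 and 48 h share a phase, so a sine wave of free phase can pass close to any levels at the sampled phases. The r then mainly reflects the gap between the 24 and 48 h arrays against the range of the course. The genes were also picked with the 40 h pattern in view, so these calls are a description and not evidence of a rhythm. *PPDK* and *FDH* peaked at phase 16 in *fhy3-4*, with an r of 0.998 and 0.999, and *GAT1_2.1* at phase 15 with an r of 0.994. Phase counts hours after subjective dawn. *GAT1_2.1* alone met the criteria in both genotypes, at phase 14 in wild type with an r of 0.996, and its fitted amplitude was 755 signal units in *fhy3-4* and 36.1 in wild type.

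*FDH* in wild type was close to the limit of the criteria. It reached an r of 0.994 at phase 12 and missed the expression change, since its ratio of peak to trough levels was 1.35 where 1.38 was needed. *PPDK* in wild type met neither criterion, with an r of 0.602. *ICL* missed the correlation criterion in both genotypes, with an r of 0.976 at phase 11 in *fhy3-4* and 0.709 at phase 0 in wild type, and met the expression change in both.

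Over the 8 arrays the log2 signals of *PPDK* and *GAT1_2.1* followed each other most closely, with a Pearson r of 0.93. The r was 0.82 for *PPDK* and *FDH*, 0.71 for *FDH* and *GAT1_2.1*, and 0.63 for *ICL* and *GAT1_2.1*. For *ICL* it was 0.38 with *PPDK* and −0.07 with *FDH*. These arrays share genotype and time, and the r values describe them without a test.

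**Figure D3:**
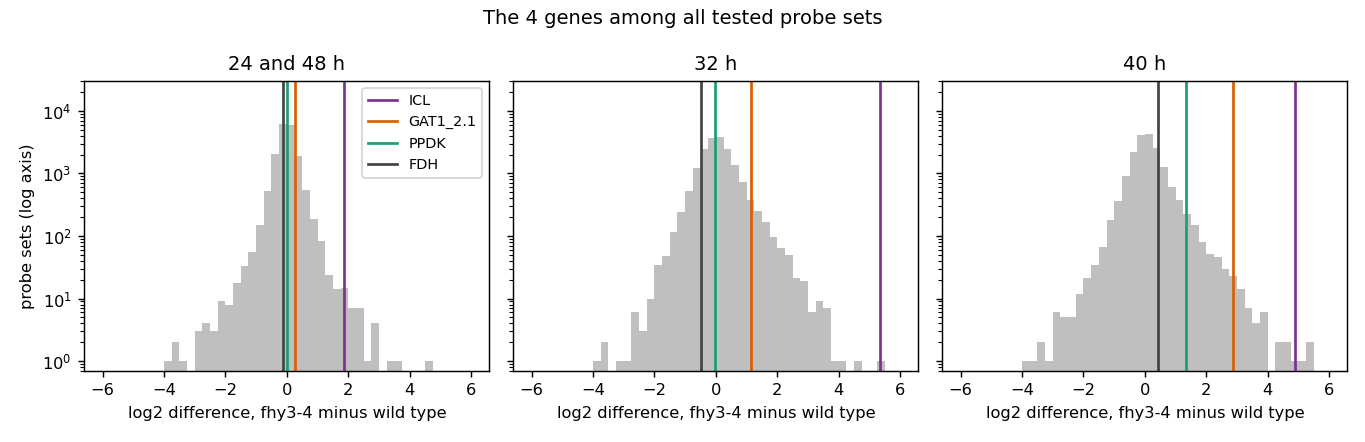
Number of tested probe sets (log axis) by log2 difference, *fhy3-4* minus wild type, for 24 and 48 h together, 32 h, and 40 h, with vertical lines for the 4 genes. *ICL* lies at 5.35 at 32 h and 4.91 at 40 h, at the upper end of all probe sets, and *FDH* lies at −0.50 at 32 h and 0.43 at 40 h, within their bulk.

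Named genes with a similar course were sought by the correlation of log2 signals over the 8 arrays, among 3526 tested probe sets with 1 named gene and at least a 2-fold range. Those most like *ICL* had an r of 0.942 to 0.963. They included *LTI30*, a cold-inducible dehydrin gene, with 979, 1376.2, 929, and 1089.6 in *fhy3-4* against 510, 300, 265, and 404 in wild type in the order of the times. *Prx37*, a peroxidase gene, had 318, 559, 909, and 443 in *fhy3-4* against 324, 153, 109, and 227 in wild type. Both separated the genotypes as *ICL* did in the afternoon and night, though *Prx37* was level between them at 24 h. The other 3 were AT1G48660, AT2G21510, and AT2G34910, of which AT2G21510 had no signal above 43.3 and lay near the floor.

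The genes most like *GAT1_2.1* had an r of 0.972 to 0.986, and 1 of the 5 had a high signal. This was *BGLU46*, a beta-glucosidase gene, with 606, 965, 3619.9, and 673 in *fhy3-4* against 525, 422, 744, and 445 in wild type. The others, *ECS1*, AT1G34100, AT1G60750, and AT2G34930, lay near the floor, with no signal above 61.7. Those most like *PPDK*, AT5G06730, AT2G10690, AT5G38710, AT1G53790, and AT2G43660, had an r of 0.973 to 0.978, and all but AT5G38710 lay near or below the floor on most arrays, with no signal above 67.9. Those most like *FDH*, AT3G53310, AT3G47800, AT1G53080, AT2G30300, and AT2G25735, had an r of 0.933 to 0.957. The brightest of these was AT3G47800, with 234, 273, 424, and 210 in *fhy3-4* against 245, 343, 374, and 214 in wild type, and like *FDH* it was below wild type at 32 h and above it at 40 h. An r of at least 0.9 was reached by 60 of these probe sets with *GAT1_2.1*, 73 with *PPDK*, 39 with *ICL*, and 8 with *FDH*. Without the *fhy3-4* array at 40 h, 0 of the 5 genes most like *PPDK* and 0 of those most like *GAT1_2.1* were again among the first 5, and 1 each for *ICL* and *FDH*.

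Other genes of carbon and nitrogen recycling were examined in 7 lists of 114 genes in all, of which 18 could be named and tested. The others had no probe set named in the platform table, which does not show that the array lacks them. Measured genes here are those named and tested. Their genotype differences were tested with limma over all tested probe sets. The p-values measure these differences against the spread between 24 and 48 h, not between replicate cultures. Limma draws this spread towards that of all tested probe sets. The lists were chosen with earlier results of these arrays known, so a call in them is not independent support. In the breakdown of amino acids, 1 of 7 measured genes rose in mean level and 0 fell, and the median log2 difference at 40 h was 0.66, against 0.03 over all tested probe sets. At 40 h 7 of 7 had a value above 0, but the median of all tested probe sets was also above 0, and *MCCB*, at 0.01, lay below that median. *MCCB* was at −0.109 after scaling the arrays to the same median and at −0.055 after quantile normalization. On the *fhy3-4* array at 40 h 6 of 7 had their highest signal of all arrays, *MCCB* by a narrow margin, as had 21.4% of tested probe sets. *PYK10*, the root marker, and the mean signal of the array were highest on that array as well, and their part in this was not tested.

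The gene that rose was AT5G38710, placed in the list by its locus code, which was also among those most like *PPDK*. Its signals were 66.8, 80.4, 313, and 77.2 in *fhy3-4* and 51.6, 61.6, 81.9, and 67.1 in wild type at 24, 32, 40, and 48 h. The log2 difference in mean level was 0.87 (SE 0.13, limma adjusted p = 0.0469), and it was 0.34 without the 40 h arrays (limma adjusted p = 0.229). Over the alternatives its adjusted p ranged from 0.00182 to 0.265, and with any 1 of the 24 or 48 h arrays left out it was 0.109 to 0.198 (limma). By this test 3.7% of tested probe sets were higher in *fhy3-4* and 2.56% lower.

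*LKR*, the gene of the bifunctional lysine-degrading enzyme, had 620, 945, 2318.5, and 811 in *fhy3-4* against 649, 920, 768, and 707 in wild type. At 40 h this was 3.02-fold, and the log2 difference there, 1.59 (SE 0.24), did not pass the test (limma adjusted p = 0.101). *IVD*, isovaleryl-CoA dehydrogenase of leucine breakdown, had 315, 352, 766, and 328 in *fhy3-4* against 386, 362, 334, and 246 in wild type, a log2 difference at 40 h of 1.20 (SE 0.35, limma adjusted p = 0.180). For the methylcrotonyl-CoA carboxylase subunit genes of the same pathway the ratio of *fhy3-4* to wild type at 40 h was 1.58 for *MCCA* and 1.01 for *MCCB*. All 4 had their highest signal of 8 arrays on the *fhy3-4* array at 40 h, as *PPDK* had, but not all stood apart there as it did. *MCCB* had 1074.7 on that array against 1066.8 in wild type at 40 h, and *MCCA* had 557 against 515 in wild type at 32 h.

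**Figure D4:**
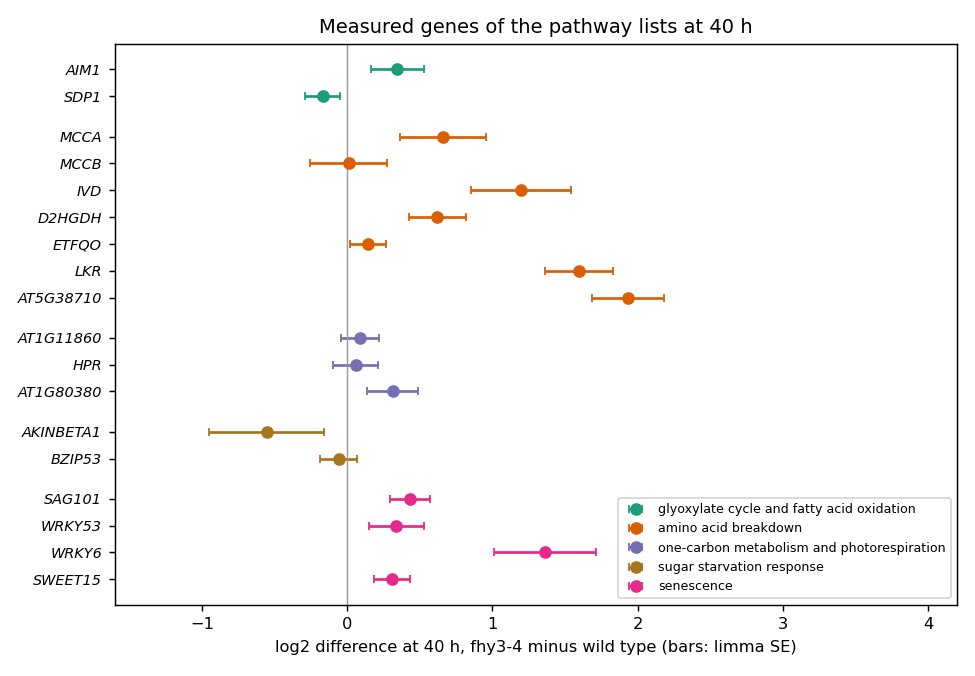
Log2 difference at 40 h, *fhy3-4* minus wild type, of the 18 measured genes of the pathway lists, coloured by list, with limma SE as bars. The 7 genes of amino acid breakdown lie between 0.01 and 1.93, and AKINBETA1 of the sugar starvation list lies lowest at −0.55.

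The other lists held too few genes that could be named and tested to describe them as wholes. Of 20 genes of the glyoxylate cycle and fatty acid oxidation beside *ICL*, 2 could be named and tested. Of these 0 passed the test in either direction, although *SDP1* passed under some alternatives. *AIM1*, a multifunctional protein gene of beta-oxidation, had a log2 difference at 40 h of 0.35 (SE 0.18), and *SDP1*, a triacylglycerol lipase gene, one of −0.17 (SE 0.12). In mean level *SDP1* had −0.18 (limma adjusted p = 0.151), which passed with a floor at 20% of the mean signal (limma adjusted p = 0.0188) and without the filter on low signals (limma adjusted p = 0.0242), and over its alternatives the adjusted p from limma ranged up to 0.342. In one-carbon metabolism and photorespiration 3 of 16 could be named and tested, *HPR*, hydroxypyruvate reductase, AT1G11860, and AT1G80380. Of these 0 passed, with log2 differences at 40 h of 0.06, 0.09, and 0.31. None of the 13 genes of gluconeogenesis beside *PPDK*, nor of the 21 of glutamine, glutamate and asparagine metabolism, could be named.

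Of 16 sugar starvation genes 2 could be named and tested, and 0 passed. *AKINBETA1*, a subunit gene of the energy-sensing SnRK1 kinase, had a log2 difference in mean level of −0.65 (SE 0.21, limma adjusted p = 0.130), and *BZIP53*, a transcription factor gene, one of −0.07. Of 14 senescence genes 4 could be named and tested, and 0 passed. *WRKY6*, a transcription factor gene, had 177, 256, 342, and 275 in *fhy3-4* against 136, 187, 133, and 155 in wild type. Its mean level differed by 0.81 on the log2 scale (SE 0.19, limma adjusted p = 0.0792). For *SWEET15*, a sugar transporter gene, the difference in mean level was 0.40 (SE 0.07, limma adjusted p = 0.0523), which passed with the higher floor (limma adjusted p = 0.0288) and without the filter (limma adjusted p = 0.0319) and ranged up to 0.242 over its alternatives. The differences in mean level of *SAG101* and *WRKY53* were 0.14 and −0.04.

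In all, 1 of the 18 list genes was called higher in mean level and 0 lower, and 6 of 18 had an unadjusted p under 0.05 in limma, where 31.9% of tested probe sets had. At 40 h 0 of 18 passed in limma, with 6 at an unadjusted p under 0.05, and over all tested probe sets 3 were called higher at that time, 0.017%, and 1 lower, 0.00566%, while 21.7% had an unadjusted p under 0.05. The fit has 2 residual degrees of freedom, and a value that missed the threshold does not show that a gene was alike in the genotypes.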

How the data were processed

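The authors' deposited values are linear intensity signals of 1-colour Affymetrix ATH1 arrays, scaled between arrays before deposition. MAS5 stands in the submitters' processing notes and D-chip in the study's methods, and which of these made the values is not settled. Probe sets were named from a platform table. Controls (64), organelle genes (87), probe sets of several genes (503) or of no matched gene (5), and 4491 with a mean under 5% of the mean signal of 413.5 in both genotypes were left out, and 8730 unnamed ones were kept in the test. Differences were tested with limma 3.58.1 on log2 signals, with a floor of 20.7, 1 coefficient for each genotype and phase, and Benjamini-Hochberg adjustment at 0.05. The members and gene lists were chosen with earlier results of these data known. Named genes were the members, the 5 most like each, and from each list those called and up to 4 of the brightest others. Ratios use linear signals. The number of arrays limits precision.
Alternatives concerned the floor, filter, scaling, probe sets, arrays left out and a time block. *FHY3* was not analysed here, so the genotype labels were not checked on it. No sequences were used here.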

Additional observations from a re-analysis of the deposited data

Results flagged for a closer look

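On 4 of the 8 sets of 4 arrays, one for each gene and genotype, 1 array lay far from the other 3 by the ratio of its gap to the whole range. The limit was that of Dixon's test at 1 in 20, a rate that holds for replicates only. The genes were picked with the 40 h pattern in view, and the share of all tested probe sets was not computed, so nothing is read from this count. These arrays are of different times and not replicates, so the ratio describes a course over the day. For *PPDK* in *fhy3-4* it was 0.934 at 40 h, for *FDH* in *fhy3-4* 0.94 at 40 h, and for *GAT1_2.1* in *fhy3-4* 0.836 at 40 h. For *PPDK* in wild type it was 0.894, for the low signal at 24 h.

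*ICL* moved in opposite directions in the 2 genotypes, and the later arrays (32, 40, and 48 h) averaged 1.99 log2 units over that of 24 h in *fhy3-4*, against −1.87 in wild type. This difference was not tested. The dimmer probe set of *GAT1_2.1*, not used for the gene, had a signal of 66.5 in *fhy3-4* at 40 h, against at most 9.98 in wild type.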

How the results depend on the processing

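Every array carries the same replicate number, so that this number pairs none. The genotypes could be paired by time, and the block used below does so. With 1 array of 24 or 48 h left out, 1 residual degree of freedom remains, and limma then called 0 probe sets, and 0 list genes, in mean level and at 40 h. In mean level the main counts were 654 higher and 452 lower in *fhy3-4*. Scaling arrays to the same median, which shifted the median difference of all probe sets at 40 h by −0.102 on the log2 scale, gave 615 and 818, and quantile normalization 537 and 566. Without a filter on low signals 712 were lower, without a floor 998 higher, with named probe sets alone 347 and 232, with time as a block 53 and 55, without the 32 h arrays 3 and 4, and without the 40 h arrays 298 and 219. List genes called in mean level numbered 3 with a floor at 20% of the mean (AT5G38710, *SDP1*, *SWEET15*), 2 without the filter (*SDP1* and *SWEET15*, with AT5G38710 lost at a limma adjusted p of 0.111), and 0 with the block or without the 32 or 40 h arrays. At 40 h the main counts were 3 and 1, with 6 higher after scaling to the median, 328 and 137 with the higher floor, when 1 list gene, AT5G38710, was called, 220 and 178 without the filter, and 18 and 11 without the floor.

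The log2 difference in mean level of *ICL* was 3.39 without the 32 h arrays and 3.50 with the block. That of *PPDK* was 0.67 without the 32 h arrays and −0.0092 without the 40 h arrays, and that of *FDH* 0.15, −0.31, and, after scaling to the median, −0.15. For *GAT1_2.1* it was 1.57 without the 32 h and 0.71 without the 40 h arrays, 1.35 after median scaling, 1.35 after quantile normalization, 1.14 with the block, and 0.995 over both probe sets. At 40 h it was 2.75 after median scaling, 2.75 after quantile normalization and 2.28 over both probe sets, and that of *FDH* 0.31 after median scaling. With a dawn array left out, the range was 3.80 to 4.28 for *ICL*, 0.38 to 0.50 for *PPDK*, −0.08 to −0.05 for *FDH*, and 1.41 to 1.45 for *GAT1_2.1*.

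Of the 5 genes most like a member, settings chosen after seeing the data kept, without the floor, 3 for *ICL*, 1 for *PPDK*, and 1 for *GAT1_2.1*, with linear signals 1 for each of these, and without the *fhy3-4* 40 h array 1 for *ICL*, 0 for *PPDK*, 1 for *FDH*, and 0 for *GAT1_2.1*.

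Small differences of list genes changed sign. After median scaling the mean level differences were −0.048 for *MCCA* and −0.039 for AT1G11860, and the 40 h differences −0.109 for *MCCB*, −0.030 for AT1G11860 and −0.061 for *HPR*, or −0.055, −0.015, and −0.041 after quantile normalization. In mean level the block gave −0.0063 for *MCCA* and −0.025 for AT1G11860. Leaving out the 32 h arrays gave −0.070 for AT1G11860, 0.0019 for *BZIP53*, and 0.22 for *WRKY53*, and leaving out the 40 h arrays −0.28 for *MCCA* and −0.0096 for *SAG101*. With a dawn array left out, *MCCA* ranged from −0.049 to 0.118, with −2.0e-05 between, and *WRKY53* from −0.085 to 0.00054. The cause was not tested. Single list gene values kept direction and side of the threshold in 406 cases, and changed sign in 18, lost the call in 8, and gained it in 5.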
